A study of Mus musculus with 4 samples.

Results

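A set of 10 genes in 3 related groups was followed through 4 h of action potential (AP) bursting in cultured mouse hippocampal neurons: the RGK GTPases Gem, Rem1, Rem2 and Rrad, the Ras-like GTPases Rasl10a, Rasl11a, Rasl11b, Rasd1 and Rasd2, and Rasgrp1, an exchange factor that loads Ras with GTP. They were found by gene name in a table of 23453 Ensembl genes, where 9 of the 10 had a row, and Rem1 was not analysed here. The set was put together for the contrast of high Gem and Rasl11a with low Rasl10a after AP bursting. The levels and folds of AP bursting over control given below are therefore descriptions and not tests.

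The AP bursting group was cultured neurons exposed for 4 h to 50 µM bicuculline, which shuts off inhibition through GABA-A receptors so that the network fires in bursts. In the control group the vehicle, DMSO, was added and basal synaptic activity went on. Both groups, of 2 libraries each, came from newborn C57BL/6NCrl mice, had grown in a medium supplemented with rat serum, and had been moved to a transfection medium before treatment on day 12 in culture. The series text names separate cell preparations for the 2 experiments, so each group rests on 2 preparations of mixed cultures.

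Small GTPases of the Ras family switch between a GTP-bound active and a GDP-bound resting form. RGK proteins are an unusual branch: they bind the beta subunits of high-voltage-activated calcium channels and lower calcium entry, and Gem and Rrad also act on the cytoskeleton. They are controlled largely through the amount of their RNA, and calcium channels open with each burst in firing neurons. The Rasl and Rasd proteins are less studied relatives of Ras, and Rasgrp1 couples calcium and diacylglycerol to Ras itself.

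The coding stretch of the GTP-binding loop shows what 8 of the 9 measured genes share, and Rasgrp1, which is no GTPase, had no match to it. Each sequence below is 8 codons long and was found in the longest coding sequence of the gene in GENCODE M21 (GRCm38) as in-frame codons for a glycine, any 4 residues, glycine, lysine and serine or threonine, with the final 3 codons in capitals, which end in serine or threonine.
Gem: ggggagcaaggagtgGGCAAGTCC
Rrad: ggggcgcctggtgtgGGCAAAAGC
Rem2: ggggagagtggcgtgGGCAAGAGC
Rasl10a: ggtgctccgggagtgGGTAAGACC
Rasl11a: ggagcgggttgtgtgGGCAAGAGC
Rasl11b: ggggccagcggcgtgGGCAAGACC
Rasd1: ggctcatccaaagtgGGCAAGACG
Rasd2: ggtgcctcccgagtgGGCAAGAGC
Each of the 8 coding sequences held the pattern once, but at different places. It began at codon 81 in Gem, 97 in Rrad and 122 in Rem2, against codon 11 in Rasl10a, 34 in Rasl11a, 39 in Rasl11b, 31 in Rasd1 and 26 in Rasd2, so the 3 RGK genes had the longer stretch before it. No word of 36 bases was shared between the coding transcripts of any pair of the 9 genes.

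The table gives a mean of 2 libraries per group, and the whole reads of each library could be worked out from the printed digits for all 9 genes. Each group had 1 deeper and 1 shallower library, called deep and shallow here and always given in that order, with 25572352 and 13229760 resolved reads after AP bursting and 20954659 and 13337809 in controls. The resolved genes held 82.75% of the summed signal after AP bursting and 70.19% in controls, so these totals do not compare depth between groups. Values are normalized reads, that is, whole reads divided by a size factor of the library that was inferred from the values. The size factors were 1.2703 and 0.6606 after AP bursting and 1.3344 and 0.9143 in controls. Libraries of the same depth were more alike than libraries of the same treatment: over 13648 genes, log2 levels correlated at r = 0.962 for the deep and 0.936 for the shallow pair, against 0.873 within AP bursting and 0.906 within controls. Genes are not independent replicates. The ratio of AP bursting over control is therefore given for each pair as well, an arrangement inferred here from the values, since the labels could not be tied to the resolved libraries. The activity markers checked the labels: Fos averaged 30704 normalized reads after AP bursting and 160 in controls, and Arc 13838 after AP bursting and 254 in controls.

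Among the RGK genes, Rem2, Gem and Rrad were all higher after AP bursting, and in each the AP bursting libraries lay above both controls. Rem2 (ENSMUSG00000022176, chromosome 14), which in neurons shapes dendrites and excitability, had 734 and 849 normalized reads after AP bursting and 214 and 293 in controls. Its mean was 792 ± 81.1 after AP bursting and 254 ± 55.7 in controls (SD, n = 2 each), 3.12-fold in the authors' deposited table. The ratio was 3.43 in the deep pair (exact 95% interval 3.0 to 3.93) and 2.9 in the shallow pair (2.5 to 3.36), and these intervals overlapped. Intervals here and below cover counting error only.

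Gem (ENSMUSG00000028214, chromosome 4), first described as a GTPase induced in stimulated T cells, had 102 and 136 normalized reads after AP bursting and 47.2 and 27.3 in controls. The means were 119 ± 24.0 after AP bursting and 37.3 ± 14 in controls (SD, n = 2 each), 3.20-fold in the authors' deposited table. All 4 libraries kept the groups apart, and the control libraries differed by more in ratio than the AP bursting ones, with the deep library higher in controls and the shallow one after AP bursting. The deep pair gave a ratio of 2.17 (1.59 to 2.98) and the shallow pair 4.98 (3.17 to 8.10), with intervals that did not overlap.

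Rrad (ENSMUSG00000031880, chromosome 8), known from muscle and heart, was the scarcest RGK transcript per kb of exon. It had 37 and 44 reads after AP bursting and 11 in each control, or 29.1 and 66.6 normalized reads after AP bursting and 8.24 and 12.0 in controls. The lower AP bursting library stood above both controls. The authors' deposited table gives 47.9 after AP bursting and 10.1 in controls, 4.72-fold. With so few reads the ratio was loosely bounded, at 3.53 in the deep pair (1.76 to 7.68) and 5.54 in the shallow pair (2.81 to 11.9). An antisense gene, Gm33023, overlaps 141 of the 1577 exonic bases of Rrad, and the libraries do not keep strand, so reads from those bases cannot be told apart.

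**Figure D1:**
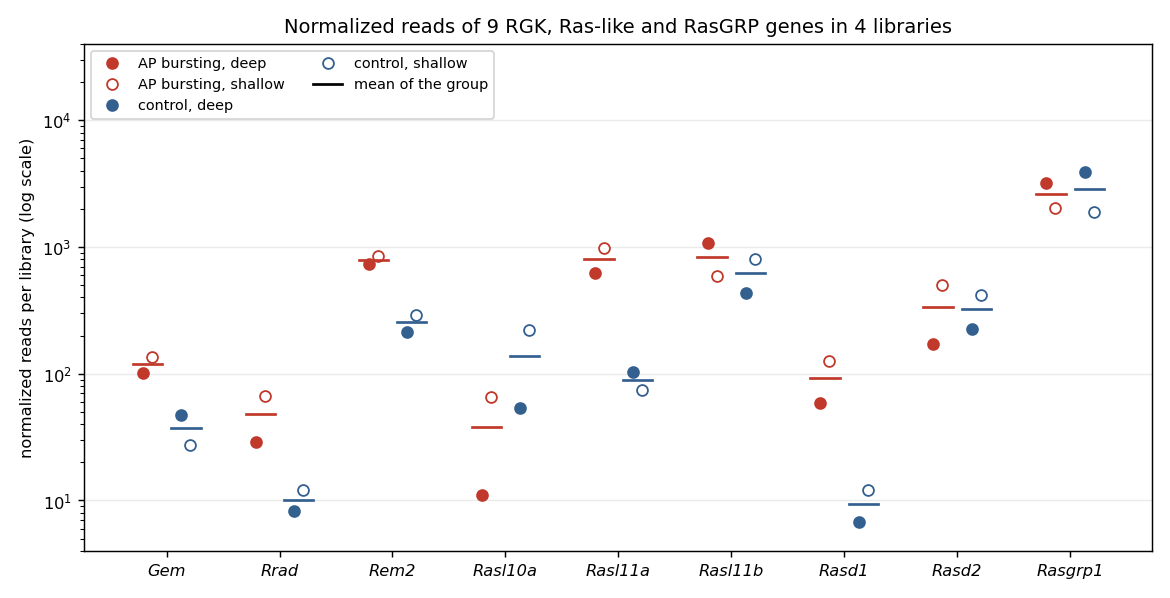
Normalized reads per library (log scale) of the 9 genes, AP bursting in red and control in blue, with filled points for deep and open points for shallow libraries and a line at the mean of the group. The red points lie above both blue points for Gem, Rrad, Rem2, Rasl11a and Rasd1, and the groups overlap for Rasl10a, Rasl11b, Rasd2 and Rasgrp1.

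Rasl11a and Rasd1 showed the widest differences of the 9 genes, both about an order of magnitude higher after AP bursting. Rasl11a (ENSMUSG00000029641, chromosome 5), whose protein has been placed in the nucleolus, had 625 and 985 normalized reads after AP bursting and 103 and 74.4 in controls. Its means were 805 ± 255 after AP bursting and 88.5 ± 20 in controls (SD, n = 2 each), 9.10-fold in the authors' deposited table. The ratio was 6.09 in the deep pair (5.07 to 7.35) and 13.2 in the shallow pair (10.3 to 17.3), with intervals that did not overlap. By the authors' deposited folds, 80 of 20379 genes whose mean reached 1 were further up.

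Rasd1 (ENSMUSG00000049892, chromosome 11), also called Dexras1 for its induction by dexamethasone, had 74 and 83 reads after AP bursting and 9 and 11 in controls. These are 58.3 and 126 normalized reads after AP bursting and 6.74 and 12.0 in controls. The groups did not overlap. The fold in the authors' deposited table was 9.79, and only 70 of the 20379 genes exceeded it. The ratio was 8.64 (4.31 to 19.6) from the deep and 10.4 (5.55 to 21.7) from the shallow libraries, with intervals that overlapped. On the log2(value + 1) scale the log2 fold was 3.11 with all libraries, 2.56 without the shallow and 3.66 without the deep AP bursting library.

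Their closest relatives behaved otherwise. Rasl11b (ENSMUSG00000049907, chromosome 5), the paralog of Rasl11a, had 1083 and 592 normalized reads after AP bursting and 435 and 803 in controls. The AP bursting library was the higher one in the deep pair, with a ratio of 2.49 (2.26 to 2.75), and the lower one in the shallow pair, with 0.737 (0.650 to 0.835). The authors' fold of 1.35 is a ratio of group means, whereas this disagreement rests on the pairing inferred from the values. Rasd2 (ENSMUSG00000034472, chromosome 8), or Rhes, the relative of Rasd1 best known from the striatum, had 172 and 501 normalized reads after AP bursting and 225 and 422 in controls. The fold was 1.04 in the authors' deposited table, with a ratio of 0.767 (0.641 to 0.916) from the deep and 1.19 (1.02 to 1.38) from the shallow libraries. The libraries of Rasl11b and Rasd2 thus overlapped between groups, and their pairs, as inferred here, pointed in opposite directions.

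Rasl10a (ENSMUSG00000034209, chromosome 11), named RRP22 in human and described there as a nucleolar GTPase that slows growth, was the lower one of the set. It had 11 and 65.1 normalized reads after AP bursting and 54.0 and 221 in controls. The means were 38.1 ± 38.2 after AP bursting and 137 ± 118 in controls (SD, n = 2 each), 0.277-fold in the authors' deposited table. The groups overlapped, since the shallow AP bursting library lay above the deep control. Within each pair, however, the AP bursting library was lower, with a ratio of 0.204 (0.106 to 0.365) from 14 against 72 reads in the deep pair and of 0.295 (0.207 to 0.411) from 43 against 202 reads in the shallow pair. By the authors' deposited folds, 175 of the 20379 genes were further down. Rasl10a and Gas2l1 overlap over 14 exonic bases, whose reads cannot be told apart.

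The value of Rasl10a depended on which libraries entered. On the log2(value + 1) scale its log2 fold was -1.97 with all libraries, -0.74 without the deep AP bursting library, -0.96 without the shallow control, -2.98 without the deep control and -3.20 without the shallow AP bursting library. The shallow library held 5.91 times the normalized reads of the deep one after AP bursting and 4.09 times in controls. Over the 16390 genes whose mean reached 10, a gap between the libraries of a group at least as wide was seen for 2.04% after AP bursting and 2.66% in controls. Rasl10b, the paralog of Rasl10a, stood at 1366 normalized reads after AP bursting and 1183 in controls, a fold of 1.15 in the authors' deposited table.

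Rasgrp1 (ENSMUSG00000027347, chromosome 2), the calcium- and diacylglycerol-sensitive exchange factor, had 3173 and 2045 normalized reads after AP bursting and 3885 and 1879 in controls. Its means were 2609 ± 798 after AP bursting and 2882 ± 1418 in controls (SD, n = 2 each), 0.905-fold in the authors' deposited table. The ratio was 0.817 in the deep pair (0.784 to 0.851) and 1.09 in the shallow pair (1.01 to 1.17). The difference between the groups was smaller than that between the 2 control libraries, and the sign turned with the pair.

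**Figure D2:**
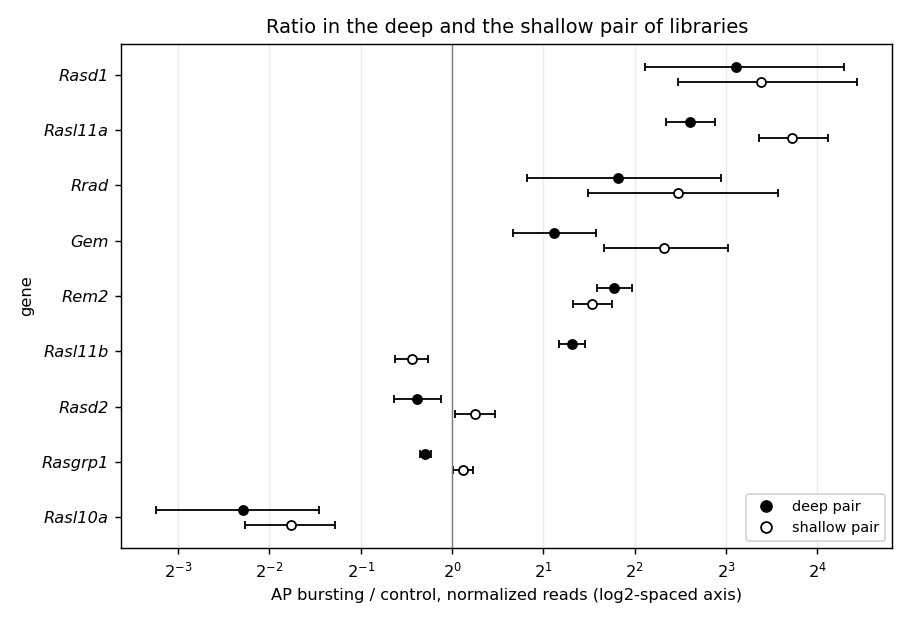
Ratio of normalized reads, AP bursting over control, in the deep pair (filled) and the shallow pair (open) of libraries on a log2-spaced axis, with bars for exact 95% intervals from counting error. Rasd1, Rasl11a, Rrad, Gem and Rem2 lie right of 1 in both pairs, Rasl10a left of 1 in both, and Rasl11b, Rasd2 and Rasgrp1 on different sides.

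Counted over the set, both AP bursting libraries lay above both controls for 5 of the 9 genes, beside 12.6% of the 20226 genes that were resolved and had a mean of 1 or more. They lay below both for 0 of 9, beside 11.7%. Both pairs were higher for 5 genes (31.6% of all) and lower for 1 (32.0% of all), and 3 genes had pairs of opposite sign. In the authors' deposited table Rasl11a (adjusted p = 0.0002) and Rasd1 (adjusted p = 0.0152) were called at 0.05, 2 of 9 beside 0.61% of 23453 genes called higher. It called 0 of 9 lower, beside 0% of all genes, and gives Gem and Rasl10a an adjusted p of 1, Rrad 0.907 and Rem2 0.456. limma with the pair of libraries as a replicate block called 5 of 9 higher (6.87% of 20226 genes) and 1 lower (6.1%), the genes that shared a direction in both pairs. Over all genes the block gave 1390 higher and 1234 lower calls, and 985 and 1883 when libraries were scaled to total resolved reads, a scaling under which each of the 9 genes kept the sign it had in that fit. On the group alone limma called 0 of 9 in either direction, beside 0.00989% of genes called higher and 0% lower, and 5 of 9 had an unadjusted p below 0.05, beside 3.3% of all genes. Since the genes were picked on this contrast, nothing is read from these counts.

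**Figure D3:**
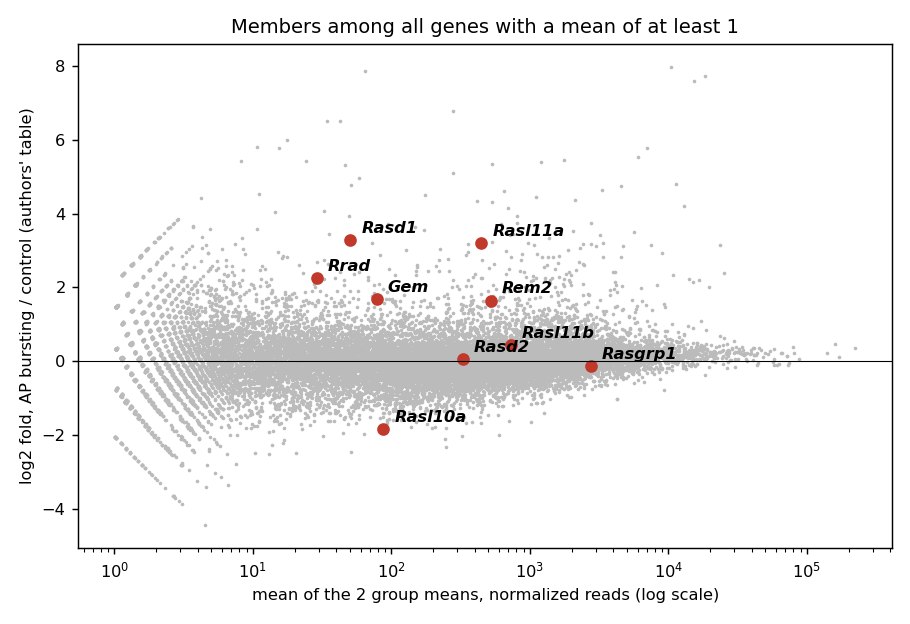
Log2 fold of AP bursting over control in the authors' deposited table against the mean of both groups in normalized reads (log scale), for 20379 genes whose mean reached 1 (grey) and the 9 genes (red, named). Rasd1 at 3.29 and Rasl11a at 3.19 stand near the top for their level, Rasl10a at -1.85 near the bottom, and Rasd2, Rasl11b and Rasgrp1 within the main cloud.

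The order of the transcripts, set on normalized reads per kb of merged exons, changed with treatment. After AP bursting Rasl11a led with 670 per kb, ahead of Rasgrp1 (466), Rasl11b (388) and Rem2 (352), and each of these overlapped its neighbour across libraries. Rasd2 followed at 106 per kb, below all of these in both libraries, and then Rasd1 at 57.1, Gem at 56.7, Rrad at 30.4 and Rasl10a at 26.9, where only Gem and Rrad were apart in both libraries. In controls Rasgrp1 led with 515 per kb, before Rasl11b at 286, Rem2 at 113, Rasd2 at 102, Rasl10a at 97.3, Rasl11a at 73.7, Gem at 17.7, Rrad at 6.43 and Rasd1 at 5.83. The control libraries separated Rasl11b from Rem2, Rasl11a from Gem and Gem from Rrad, and overlapped between the other neighbours. Exon lengths came from GENCODE M21 on GRCm38, whereas the notes on the table name mm9.

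The spread between libraries of a group was not used to choose the genes. The deep library was on the same side of the shallow one in both groups for 6 of the 9 genes, beside 84.4% of the 16390 genes whose mean reached 10. Gem, Rasl11a and Rasl11b were the other 3. For Gem and Rasl11a the shallow library was the higher one after AP bursting and the lower one in controls, and for Rasl11b the reverse held. Rasgrp1 alone was higher in the deep library of both groups.

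RNA was taken from whole cultures, so fewer cells of a type and less RNA per cell cannot be told apart. Of the cell type markers, summed over resolved genes, 6 inhibitory neuron markers stood at 22840 to 28297 normalized reads after AP bursting and 17338 to 18007 in controls. The 4 resolved excitatory markers summed to 5126 to 5725 after AP bursting and 7255 to 9205 in controls. These 2 neuronal sums did not overlap between the groups. The glial sums below overlapped, but each was higher after AP bursting in both the deep and the shallow pair. Astrocyte markers (7 of 7 resolved) summed to 13073 to 21212 after AP bursting and 11433 to 15706 in controls. Oligodendrocyte lineage markers (8 of 8) summed to 1415 to 2420 after AP bursting and 1406 to 1808 in controls, and microglial markers (7 of 7) to 61.4 to 87.8 after AP bursting and 44.2 to 77.6 in controls. Endothelial and mural markers (5 of 5) reached 343 to 467 after AP bursting and 311 to 416 in controls, and fibroblast markers (5 of 5) 1307 to 1529 after AP bursting and 1071 to 1142 in controls, without overlap. Of 6 neuron markers only Rbfox3 was resolved, at 3158 normalized reads after AP bursting and 2847 in controls. Cx3cr1 and P2ry12 were at 0 in the deep control, and every other resolved marker had reads in all 4 libraries. The part of these shifts in the values of the 9 genes was not tested.

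The promoters of Rasl11a, the most abundant per kb after AP bursting, and of Rasl10a, the gene that was lower, are shown as the 250 bases before the RefSeq gene start (GRCm38.p6). The capitals mark the only match in either to the motifs searched.
Rasl11a, chr5:146844821-146845070, plus strand: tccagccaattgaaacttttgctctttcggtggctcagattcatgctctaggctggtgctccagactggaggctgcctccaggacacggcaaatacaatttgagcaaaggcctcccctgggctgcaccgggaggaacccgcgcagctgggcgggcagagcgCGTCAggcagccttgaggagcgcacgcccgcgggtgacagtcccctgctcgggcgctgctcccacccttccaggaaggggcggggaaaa
Rasl10a, chr11:5057878-5058127, plus strand: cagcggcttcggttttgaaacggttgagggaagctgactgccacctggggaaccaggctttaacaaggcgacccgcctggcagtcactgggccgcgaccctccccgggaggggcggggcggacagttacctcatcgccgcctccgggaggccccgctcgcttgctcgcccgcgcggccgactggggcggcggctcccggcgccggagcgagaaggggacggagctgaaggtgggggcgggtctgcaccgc
Rem2, Rasl11b, Rasd2 and Rasgrp1 also had an entry, 6 of the 9 genes in all; Gem, Rrad and Rasd1 had none. Motifs were searched on both strands: the cAMP response element TGACGTCA, the short form TGACG, which lies within it, the AP-1 motif TGANTCA, the Egr motif GCGTGGGCG, the Npas4 motif TCGTG, the CArG box and the MEF2 motif. The short form was found once, in Rasl11a, starting 89 bases before the gene start and read there from the opposite strand. None of the other 5 promoters held any of the motifs. Of 32851 RefSeq promoters of this length 17.8% held the short form, 1.55% the full element, 6.75% the AP-1, 0.536% the Egr and 13.3% the Npas4 motif, 1.47% a CArG box and 2.92% a MEF2 motif. A match is a run of letters and no more than that.

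By likeness of pattern over the 4 libraries, measured as Euclidean distance of centred log2 levels among 12280 genes whose mean reached 100, Ell2 was nearest to Gem. Ell2 had 795 and 1054 normalized reads after AP bursting and 357 and 209 in controls, at a distance of 0.0538. Rnd3 (0.239) and R3hdm1 (0.274) came next. Nearest to Rasl11a were Ism1 (distance 0.0834), Penk1 (0.180) and Dusp4 (0.265). Nearest to Rasl10a were Kif26a (0.281), Traip (0.718) and Crocc (0.763), and Kif26a had 32.3 and 142 normalized reads after AP bursting and 123 and 493 in controls. Chosen among so many genes over 4 libraries, such neighbours describe a shape only.

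The wider Ras machinery was set beside these genes in 8 lists, in which the authors' deposited table called 1 of 127 genes higher and 0 lower. With the replicate block limma called 11 of 113 resolved list genes higher and 5 lower, beside 6.87% and 6.1% of all genes, and 29 (25.7%) had an unadjusted p below 0.05, beside 23.2% of all genes. That fit has 1 residual degree of freedom, so its p-values rest on the variance trend: of the 16 calls, 0 were kept on the group alone, without the trend or in any leave-one-out fit. Scaled to total resolved reads, the same fit called 9 higher and 12 lower. The median log2 fold of the 127 genes was 0.09 in the authors' deposited table, beside 0.01 over the 20379 genes. The authors' deposited table gives an adjusted p of 1 for 11 of the 13 list genes that the naming rule picked, and 0.215 for Plk3.

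Of the channels that RGK proteins act on, 0 of 12 subunits of high-voltage-activated calcium channels passed in the authors' deposited table. With the replicate block limma called 0 of the 12, and 0 had an unadjusted p below 0.05, beside 23.2% of all genes. Their folds ran from 0.870 for Cacna1d to 1.26 for Cacna1a in the authors' deposited table. The beta subunits, to which RGK proteins bind, had folds of 1.06 for Cacnb1, 1.26 for Cacnb2, 0.941 for Cacnb3 and 1.16 for Cacnb4 there. Between the deep libraries the 12 subunits had a median log2 fold of 0.04, and between the shallow ones 0.30. Over all genes these medians were 0.01 and -0.02, so the subunits stood higher in the shallow pair.

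A list of 18 genes held binding partners and cytoskeletal effectors of RGK proteins together with the polo-like kinases Plk2 and Plk3, which are not known here as RGK partners. The authors' deposited table gives 1 of the 18 as raised, Plk2 (4.15-fold, adjusted p = 0.0245), a kinase known for phosphorylating regulators of Ras and Rap at synapses. Plk2 had 17157 and 9415 normalized reads after AP bursting and 3125 and 3283 in controls, with no overlap, but limma on the group alone did not call it. With the replicate block 3 of 8 resolved genes were called higher and 0 lower, beside 6.87% and 6.1% of all genes. These were Plk2 (log2 fold 1.99 ± 0.15, SE, limma adjusted p = 2.53e-35), Plk3 (1.81 ± 0.21) and Rock2 (0.81 ± 0.16). Rock2 is a kinase and a reported partner of Rad, the product of Rrad. Apart from the polo-like kinases, Rock2 was thus the only call in the list. The other 10 were too abundant to resolve, among them 14-3-3 genes, whose proteins bind RGK proteins.

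Of 25 other GTPases of the Ras family 0 passed in the authors' deposited table. With the replicate block limma called 4 of them higher and 2 lower, beside 6.87% and 6.1% of all genes. Rheb, the activator of mTORC1, had a log2 fold of 1.25 ± 0.17 (SE, limma adjusted p = 3.67e-11) and Rras2, a close relative of Ras, 1.16 ± 0.18. Neither call was kept on the group alone or without the trend. Rhebl1, the paralog of Rheb, had a log2 fold of -1.16 ± 0.30. Rap2a (0.76), Rap1b (0.72) and Rerg (-0.62) complete the calls and were named after their values were seen; the call of Rerg was lost at a pseudocount of 5 and among genes whose mean reached 50. Rheb had 5519 and 2192 normalized reads after AP bursting and 2356 and 912 in controls, so its groups overlapped although its pairs had like log2 folds of 1.23 and 1.26. Rhebl1 had 48.8 and 48.4 after AP bursting and 102 and 118 in controls, with no overlap. Hras1 and Nras, which encode Ras proteins proper, had folds of 0.791 and 0.809 in the authors' deposited table, and neither was called.

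Among the regulators of these switches, 0 of 17 exchange factors and 0 of 16 GTPase-activating proteins passed in the authors' deposited table. With the replicate block 1 exchange factor was called higher, Rapgef6 for Rap (log2 fold 1.15 ± 0.19, SE), and 1 lower, Ralgds for Ral (-0.94 ± 0.17). The relatives of Rasgrp1 had folds of 1.25 for Rasgrp2, 0.757 for Rasgrp3 and 1.24 for Rasgrp4 in the authors' deposited table, and none was called. Rasgrp3 was scarce, at 5.45 normalized reads after AP bursting and 7.2 in controls, and its pairs had opposite signs. Of the activating proteins 2 were called higher, Sipa1l2 for Rap (1.13 ± 0.17) and Rasa2 for Ras (0.69 ± 0.19), and 1 lower, Rasa3 (-0.58 ± 0.18). The call of Rasa2 was lost with scaling to total resolved reads (log2 fold 0.54).

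Downstream, 0 of 10 genes of the Ras-ERK cascade passed in the authors' deposited table. Of 9 resolved, the replicate block called 1 higher and 1 lower, beside 6.87% and 6.1% of all genes. Braf was the higher one (log2 fold 0.52 ± 0.18, SE) and the scaffold Ksr1 the lower one (-0.79 ± 0.19). The call of Braf was lost at a pseudocount of 5 and with scaling to total resolved reads. Of 12 partners of Rasd1 and Rasd2, 0 passed in the authors' deposited table and 0 of 10 resolved genes were called with the replicate block. Of these 10, 3 (30.0%) had an unadjusted p below 0.05 in that limma fit, beside 23.2% of all genes. Nos1ap, which links Rasd1 to neuronal nitric oxide synthase and was not called, had a fold of 1.22 in the table the authors deposited. Of 17 genes of diacylglycerol signalling around Rasgrp1, 0 passed in the authors' deposited table and 0 of 16 resolved genes were called with the replicate block. Of these 16, 0 had an unadjusted p below 0.05 in that limma fit, beside 23.2% of all genes. The lowest fold of the list in the authors' deposited table was 0.818, for the diacylglycerol kinase Dgki.

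**Figure D4:**
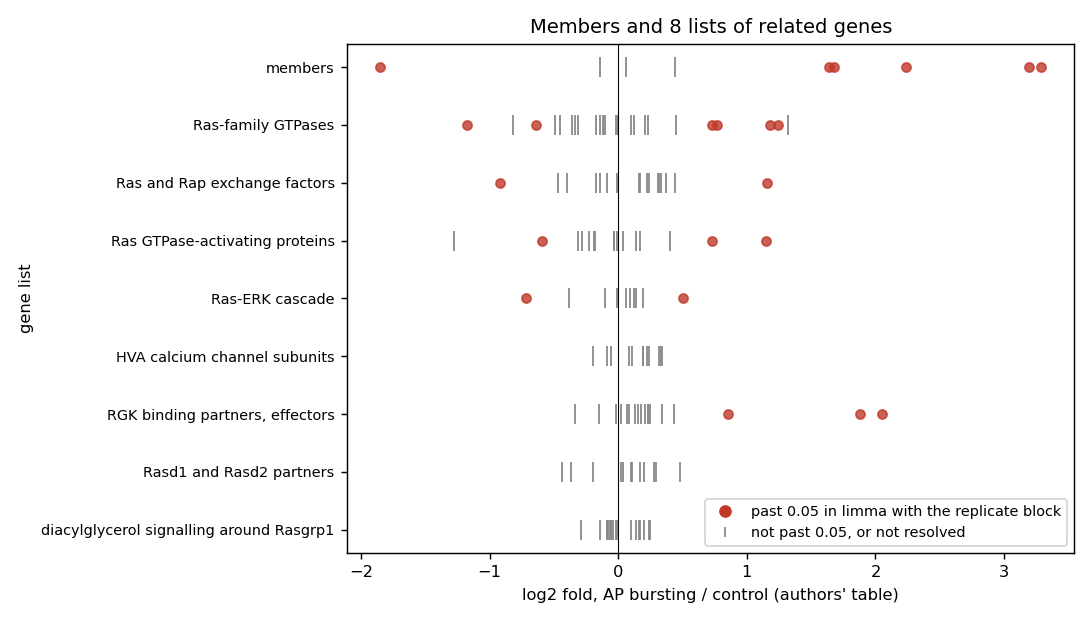
Log2 fold of AP bursting over control in the authors' deposited table for the 9 genes (top line) and 8 lists of related genes, with red points for genes past 0.05 in limma with the replicate block and grey ticks for the rest or for genes not resolved. The calcium channel list lies between folds of 0.870 and 1.26 with 0 red points, and Plk2 and Plk3 are the rightmost points among the lists; the top line was chosen on this contrast.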

How the data were processed

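RNA was measured in 4 libraries, 2 per group. Per the labels' protocols, libraries were made from DNase-treated total RNA and do not keep strand. Per the submitters' processing notes, TopHat 1.2.0, SAMtools 0.1.19 and DESeq 1.12.0 were used with build mm9; which tool counted reads, and on which annotation, is not given in the sources used here. Per the file headers the authors deposited the mean normalized signal (headed normalized counts) of each group, their ratio (fold) and an adjusted p-value. Unused per-sample columns numbered 0.

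From these means the whole reads of each library were worked out: each library adds whole multiples of its own step to the mean, and a single pair of counts matched the printed digits for 98.8% of control and 99.51% of AP bursting values. Means simulated from the fitted steps, all below the lowest unresolved values, were resolved rightly in 1000 of 1000 cases per group. That outcome was largely set by the range simulated. Of 2000 values per group moved at random, 18 after AP bursting and 6 in controls still matched a pair of counts. log2(value + 1) was fitted with limma 3.58.1 (R 4.3.3), variance trend included, for 20226 genes whose mean reached 1, on the group alone and with the pair of libraries as a replicate block, two-sided with Benjamini-Hochberg adjustment at 0.05. The pseudocount shrinks the folds of low genes. The labels number the replicates, but which resolved library carries which number is not known; the deep-minus-shallow difference of both groups correlated at r = 0.878 across genes, which set the pairs. The block leaves 1 residual degree of freedom, so its p-values rest on the variance trend across genes. In fits that leave out a library, the remaining library of that group is taken to vary as the others do.

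The genes, lists and motifs were chosen with earlier results of these data known. All genes of the rule were named, and in each list those past 0.05 in the authors' table plus up to 3 with the largest log2 fold called with the block in both pairs; a few were added after their values were seen. List genes were matched by name or Ensembl ID; a few are counted in their lists but not reported here by name.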

Additional observations from a re-analysis of the deposited data

How the results depend on the processing

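The authors' table called 143 genes higher and 0 lower. limma on the group alone called 2 higher, with 668 at an unadjusted p below 0.05, and leave-one-out fits 2 to 28 higher (28 without the deep AP bursting library). The replicate block gave 1390 higher and 1234 lower calls (4696 at an unadjusted p below 0.05), and 0 of either without the trend, where the cause was not tested. With the block the counts were 1383 and 1239 at a pseudocount of 0.5, 1193 and 913 at 5, 1360 and 1178 with no filter, and 1126 and 960 at a mean of at least 50. Scaling to total resolved reads gave 985 and 1883, with a median log2 fold over genes of -0.16 in place of -0.02.

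Of the list genes, 1 was higher and 0 lower in the authors' table. limma on the group alone, the leave-one-out fits and the block without the trend gave 0 higher. The block gave 11 and 5, also at a pseudocount of 0.5 and with no filter, 10 and 4 at a pseudocount of 5, 11 and 4 at a mean of at least 50, and 9 and 12 with total-read scaling. The 13 list genes named by the rule kept their direction in all 156 alternative values, a set of alternatives chosen after seeing the data. The rule picked genes with a like direction in both pairs, so this was largely set by the choice. The group alone, the block, the block without the trend and the filters also give a gene the same log2 fold by design. Nothing is read from this count. Plk2 no longer passed on the group alone, without the trend and in each leave-one-out fit. Of the 16 list genes called with the block, 14 were kept at a pseudocount of 5 (Braf and Rerg lost), 14 with total-read scaling (Braf and Rasa2 lost) and 15 at a mean of at least 50 (Rerg lost).

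Across the alternatives the log2 fold lay between 1.30 and 2.07 for Gem, 1.46 and 2.62 for Rrad (below the mean of 50, so without a value there), 1.43 and 1.88 for Rem2, 2.82 and 3.48 for Rasl11a, 2.56 and 3.66 for Rasd1, and -3.20 and -0.74 for Rasl10a. Rasl11b lay between 0.00 and 0.88. The sign of Rasd2 (-0.83 to 0.70) and Rasgrp1 (-0.61 to 0.44) turned with the library left out. The low reads of Rrad, Rasd1 and Rasl10a limit their precision.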
